A study of Mus musculus with 12 samples.

Results

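The genes of 10 LIM-domain proteins that sit on actin stress fibres were followed in mouse neural progenitor cells (NPCs): Fhl1, Fhl2 and Fhl3, the PDZ-LIM genes Pdlim1, Pdlim5 and Pdlim7, the cysteine-rich protein genes Csrp1 and Csrp2, and Tes and Zyx. They were chosen by name, with earlier results of these data known, as 10 of the 21154 genes that at least 1 array probe names, and every one had a probe, 15 probes in all. A LIM domain is a pair of zinc fingers that binds other proteins and not DNA. Stress fibres are contractile bundles of actin filaments and myosin, and zyxin, Tes, the FHL proteins and several PDZ-LIM proteins gather on them when the bundles are under tension. Many genes of the contractile cytoskeleton are controlled by Srf (serum response factor), which binds a DNA element called the CArG box, together with its cofactor Mkl1, which monomeric actin holds back.

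The study's NPC lines were made by differentiation in culture, from embryonic stem cells or from induced pluripotent stem cells reprogrammed from NPCs. Lines from induced pluripotent stem cells carry reprogramming factors that doxycycline switches on. Total RNA of the cells was labelled with cyanine 3 and hybridized to 1-colour Agilent arrays, 1 sample per array. In the overexpression experiment, retrovirus carried EGFP (the control), Mkl1 or Srf into the cells, and in the knockdown experiment it carried hairpin RNAs, with shEGFP as the control and shActb_1 and shActb_2 as 2 hairpins that target the β-actin gene Actb. All 6 groups were NPCs kept in medium with EGF and bFGF, with 2 arrays each, 12 in all. No source used here names the NPC line of each array, and the study describes its duplicate arrays for the Actb knockdown as technical, so p-values measure only the spread between arrays, whose number limits the precision.

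Levels are given as log2 of the processed signal minus the 75th percentile of the array, so that 0 is a probe as bright as that percentile. Levels of different probes are compared only within summed marker levels and to rank the probes of a gene. Between 59.3% and 72.4% of probes were well above background on an array, no spot was saturated, and arrays of a group correlated at r = 0.993 to 0.998. EGFP, Mkl1 and Srf were hybridized on slide 1, shEGFP and shActb_1 on slide 2, and shActb_2 alone on slide 3, so that this slide and this hairpin cannot be told apart. On slide 1 the EGFP arrays sat in the second row and the others in the first, and row and group cannot be told apart there. Of the targeted genes, Actb fell by 0.53 with shActb_1 (adjusted p = 0.00128, limma) and by 0.65 with shActb_2 (adjusted p = 0.000196, limma). The Mkl1 probe differed by 0.17 between Mkl1 and EGFP and did not pass the test (adjusted p = 0.312, limma). The brightest Srf probe read 1.40 lower, not higher, on the arrays labelled Srf (log2 difference -1.40, adjusted p = 0.000266, limma), so that it does not show the overexpression that the label names. Per the study's methods the vectors carried open reading frames, and a probe outside the frame would not read the transgene. Where these probes lie relative to the transgenes was not determined here, and every statement on Srf below is about the arrays labelled Srf.

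Of 9 neural progenitor markers, 7 or 8 were above background on both arrays of every group, and Olig2 was not detected on either array in 5 of them (it was on 1 array of Mkl1). The summed level of 5 smooth muscle markers (Acta2, Tagln, Cnn1, Myh11 and Des) ranged from 2.57 to 3.16 in EGFP, from 7.14 to 7.21 in Mkl1, from 5.20 to 5.37 on the arrays labelled Srf, from 3.35 to 3.64 in shEGFP, from 6.56 to 6.64 in shActb_1 and from 7.10 to 7.12 in shActb_2. This sum rose with Mkl1 and each hairpin, as many of the members described below did, while Csrp2 fell. It also rose on the arrays labelled Srf, where 2 of the 9 tested members lay above 0. The part of the sum in the differences of the members was not tested. Of these markers Myh11 was not above background on any array of EGFP, shEGFP or shActb_1. All 6 fibroblast and mesenchyme markers were above background in every group, and their summed level was lower than in the control with each treatment, 7.42 to 7.43 in EGFP against 6.69 to 6.94 in Mkl1 and 6.57 to 6.62 on the arrays labelled Srf, and 7.09 to 7.18 in shEGFP against 6.73 to 6.87 in shActb_1 and 6.39 to 6.44 in shActb_2. That sum is set mostly by Col1a2 and Col3a1, the brightest of the 6, and Thy1 rose past the test by 1.49 with Srf, 3.09 with Mkl1, 1.63 with shActb_1 and 2.90 with shActb_2. The 4 pluripotency markers summed to 1.53 to 1.74 on the arrays labelled Srf and to -0.08 to 0.12 in EGFP, with Esrrb 2.53 higher and the only one of the 4 past the test (Nanog 0.12, Zfp42 -0.13, Pou5f1 -0.34). The summed level of 4 astrocyte markers ranged from 1.50 to 1.63 in EGFP, 1.13 to 1.39 in Mkl1, 2.27 to 2.32 on the arrays labelled Srf, 1.86 to 1.91 in shEGFP, 0.89 to 1.04 in shActb_1 and 1.14 to 1.26 in shActb_2, and that of 5 neuron markers from 2.86 to 2.89, 2.57 to 2.68, 3.18 to 3.30, 3.08 to 3.34, 2.89 to 2.97 and 2.81 to 2.90 in the same order. The astrocyte sum is set mostly by Aldh1l1, the 1 marker past the test with Srf. Aqp4 and Gfap read lower there than in EGFP. Snap25 sets most of the neuron sum. With Srf 2 neuron markers were higher past the test and 1 lower, and Map2 read 0.06 there and 0.93 in EGFP. Map2 was the only neuron marker past the test with Mkl1 and with each hairpin, lower by over 2-fold. The neural progenitor markers summed to 8.13 to 8.22 in EGFP, 8.33 to 8.39 in Mkl1, 8.01 to 8.06 on the arrays labelled Srf, 8.09 to 8.11 in shActb_1 and 8.51 to 8.52 in shActb_2, and shEGFP was lowest, from 7.98. Vim, the brightest of the 9, sets most of that sum. Of those tested, 2 were higher and 1 lower (Sox2) past the test with Srf, and 1 (Nes) and 3 with Mkl1. With shActb_1 0 were higher and 3 lower, and with shActb_2 3 and 2. Slc1a3 fell by over 2-fold with Mkl1 and each hairpin, and Sox2 and Fabp7 did so with shActb_1. The part of these markers was not tested either. Of the 5 striated muscle markers, Myog and Myh3 were not above background on any array, Actn2 was above it on both arrays of EGFP, Mkl1, Srf and shActb_2, and Myod1 on both arrays of shActb_2. In RNA from whole cultures, fewer cells of a type and less RNA per cell cannot be told apart.

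Promoter windows of 300 bases (250 before to 50 after the start site, RefSeq, build GRCm38.p6) were at hand for 9 of the 10 genes, 13 windows in all, and not for Csrp2. The CArG box, searched in its strict form (a pair of C, then only A or T, then a pair of G), reads the same on both strands and was found in 535 of 32841 windows of all genes (1.63%) and in 488 of 27018 genes (1.81%). Among the members it was found for Fhl1 (1 of its 2 windows) and Fhl2 (both windows), 2 of 9 genes. Among the other cytoskeletal LIM-domain genes with a window it was found for 5 of 32 (Ldb3, Trip6, Nebl, Lima1 and Prickle3). The windows of Fhl1 and Fhl2 that hold it are shown with the box in capitals, and a window of Tes is shown beside them because Tes moved in the same directions as Fhl2 with both overexpressions and its window holds no such letters.

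Fhl1, chrX:56779433-56779732, + strand: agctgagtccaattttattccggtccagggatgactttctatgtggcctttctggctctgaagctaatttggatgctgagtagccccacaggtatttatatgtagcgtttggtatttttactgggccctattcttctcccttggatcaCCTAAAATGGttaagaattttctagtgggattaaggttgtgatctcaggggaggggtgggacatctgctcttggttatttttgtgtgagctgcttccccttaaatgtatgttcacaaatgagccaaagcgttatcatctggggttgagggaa
Fhl2 window 1, chr1:43196712-43197011, - strand: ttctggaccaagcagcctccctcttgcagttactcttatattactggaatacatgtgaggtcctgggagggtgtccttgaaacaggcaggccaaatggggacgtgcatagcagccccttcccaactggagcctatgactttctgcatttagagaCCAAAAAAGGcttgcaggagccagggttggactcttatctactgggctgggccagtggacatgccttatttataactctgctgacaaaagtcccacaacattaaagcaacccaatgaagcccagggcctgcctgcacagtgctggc
Fhl2 window 2, chr1:43163912-43164211, - strand: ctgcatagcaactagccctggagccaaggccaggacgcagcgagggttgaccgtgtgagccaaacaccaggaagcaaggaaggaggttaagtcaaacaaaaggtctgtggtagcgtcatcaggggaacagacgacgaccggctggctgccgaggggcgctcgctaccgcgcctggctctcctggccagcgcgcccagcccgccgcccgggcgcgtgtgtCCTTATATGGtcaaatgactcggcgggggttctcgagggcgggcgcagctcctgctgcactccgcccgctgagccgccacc
Tes, chr6:17064899-17065198, + strand: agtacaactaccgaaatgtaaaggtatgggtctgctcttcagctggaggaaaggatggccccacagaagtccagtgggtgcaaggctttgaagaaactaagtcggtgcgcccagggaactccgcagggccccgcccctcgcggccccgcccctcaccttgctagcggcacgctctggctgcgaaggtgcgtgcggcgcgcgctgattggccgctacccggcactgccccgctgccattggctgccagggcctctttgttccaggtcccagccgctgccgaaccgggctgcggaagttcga

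Counted from the start site, the box begins at base -102 for Fhl1, at -96 in the first window of Fhl2 and at -31 in its second. The windows of Fhl3, Pdlim1, Pdlim5, Pdlim7, Csrp1 and Zyx held none, nor did the second window of Fhl1. By the same search, the Srf window held 2 boxes and that of Myl9 held 1, while those of Acta2, Cnn1 and Mkl1 held none. A match is a string of letters and not a measured site. A box with a G or C among its inner letters does not match this form, so a window without a match may still hold an Srf element.

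With Mkl1, nearly all of these genes were higher than in EGFP. Of the 10 members, 8 were higher past the test (adjusted p under 0.05), Csrp2 was lower and Fhl3 did not pass, while 29.0% of all genes tested passed in either direction, 17.7% higher and 11.3% lower. Members past the test with over 2-fold were Fhl1, Fhl2, Pdlim5 and Csrp1, 4 of 10 where 3.84% of all genes did so. The median log2 difference of the members was 0.68, beside 0.019 over all genes tested. Fhl1 entered this comparison only because it was above background in Mkl1, the group where it is high. Without it, 8 of 9 members passed the test (7 higher, Csrp2 lower), 3 of 9 with over 2-fold, and the median was 0.65. A fit on the compared arrays alone, with few degrees of freedom, left Fhl2 as the 1 member past the test, and the call of Csrp2 was lost without any 1 of the arrays.

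On the arrays labelled Srf, the members split. Of the 9 tested, Fhl2, Pdlim5, Csrp2 and Tes were lower than in EGFP past the test and Pdlim7 was higher, 5 of 9 where 33.9% of all genes passed in either direction (16.5% lower, 17.4% higher). The compared arrays alone left 1, Fhl2. Only Csrp2 passed with over 2-fold, where 7.01% of all genes did. Pdlim1, Csrp1, Zyx and Fhl3 did not pass, at -0.13, -0.01, -0.10 and 0.24. The median of the members was -0.13, beside -0.0090 over all genes. Both comparisons use the same EGFP arrays.

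Under knockdown of Actb the members again lay mostly above their control. With shActb_1, 7 of 9 tested members were higher past the test and Csrp2 was lower, where 14.0% of all genes passed in either direction, 7.79% higher and 6.17% lower. Without shEGFP replicate 1 or without shActb_1 replicate 1 these 8 calls became 5 (Csrp2, Pdlim1 and Tes were lost), and the compared arrays alone also left 5. Fhl2 and Csrp1 passed with over 2-fold (2.40% of all genes). With shActb_2, 7 of 10 were higher and none was lower past the test, where 44.5% of all genes passed, 28.2% higher and 16.3% lower, and Fhl2 passed with over 2-fold (5.76% of all genes). The 7 include Fhl1, which was tested only because it was above background in shActb_2 and whose control gives only a bound, and without it 6 of 9 were higher. Csrp2 passed as lower under 5 alternatives, Pdlim1 under quantile normalization and Fhl3 with only probes above background on all arrays. These values are given with the genes below. The median of the members was 0.53 with shActb_1, beside 0.024 over all genes, and 0.66 with shActb_2 (0.64 without Fhl1), beside 0.069. The hairpins share the shEGFP arrays.

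**Figure D1:**
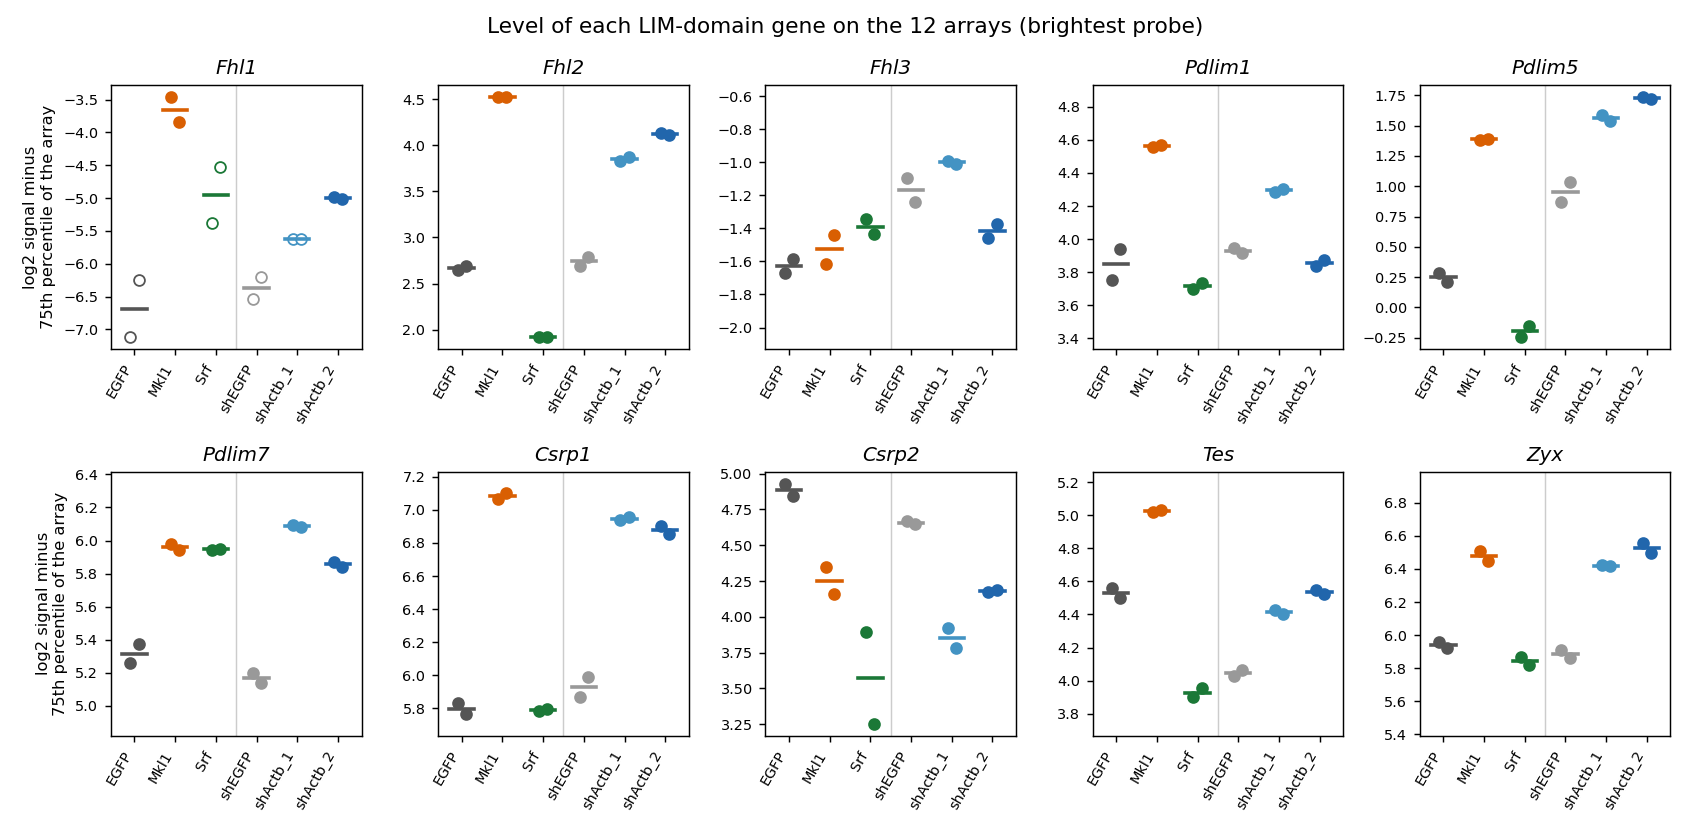
Level of each gene at its brightest probe on every array, as log2 signal minus the array's 75th percentile, with 1 panel per gene and its own axis range. Points are single arrays, bars are group means, and open points mark groups in which the probe was not well above background on both arrays. The Mkl1 arrays of Fhl2 both sat at 4.53 and the arrays labelled Srf both at 1.92, on either side of the EGFP arrays.

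Fhl2, a LIM-only protein that shuttles between stress fibres and the nucleus, where it acts as a transcriptional cofactor, is a known target of Srf. Its probe (NM_010212) read 2.64 and 2.69 on the EGFP arrays, 4.53 and 4.53 in Mkl1, and 1.92 and 1.92 on the arrays labelled Srf. In the knockdown experiment it read 2.69 and 2.79 in shEGFP, 3.83 and 3.88 in shActb_1, and 4.13 and 4.12 in shActb_2. No groups of either experiment overlapped, with the Srf arrays lowest of all 12 and the Mkl1 arrays highest. Fhl2 was 3.63-fold higher in Mkl1 than in EGFP (log2 difference 1.86, SE 0.056, adjusted p = 8.07e-06, limma). On the arrays labelled Srf it was lower by a factor of 1.68 (log2 difference -0.75, SE 0.056, adjusted p = 0.000122, limma). It was 2.16-fold higher with shActb_1 (adjusted p = 9.7e-05, limma) and 2.6-fold higher with shActb_2 (adjusted p = 2.33e-05, limma). All 4 differences thus passed the test, in opposite directions for the 2 overexpressions.

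Fhl1, the relative of Fhl2 that is abundant in striated muscle, was dim in these cells. Its probe (NM_001077361) read -7.12 and -6.25 in EGFP, -3.46 and -3.85 in Mkl1, and -5.38 and -4.52 on the arrays labelled Srf. In the knockdown experiment it read -6.53 and -6.21 in shEGFP, -5.63 and -5.62 in shActb_1, and -4.98 and -5.01 in shActb_2. The probe was well above background on both arrays only in Mkl1 and shActb_2, on 1 array each in Srf and shActb_1, and on none in EGFP or shEGFP, so that the controls give only a bound. The bound sets the mean of the brighter group against the higher of the dim probe's own signal and the lowest signal that was well above background on each control array. By it, Fhl1 was at least 2.60-fold higher in Mkl1 than in EGFP (measured means -3.65 and -6.69, adjusted p = 0.0015, limma) and at least 1.54-fold higher in shActb_2 than in shEGFP (measured means -5.00 and -6.37, adjusted p = 0.0158, limma). These p-values support nothing, since the probe entered each test through the group where it was high. The call with shActb_2 was lost without shEGFP replicate 1 (adjusted p = 0.0954, limma) or either shActb_2 array. With normexp background correction the log2 differences were 0.72 with Mkl1 and 0.25 with shActb_2, both past the test and both smaller than these bounds, so that Fhl1 no longer passed 2-fold. Fhl1 was not tested with Srf against EGFP or with shActb_1, since a single array of each was above background, and without Srf replicate 1 it entered the Srf comparison and passed with over 2-fold.

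Fhl3, which binds actin and is expressed in muscle, had 2 probes (both NM_010213) and did not pass the test in any of the 4 comparisons with a control at its brighter probe. That probe lay between -1.67 and -1.58 in EGFP, -1.62 and -1.44 in Mkl1, -1.44 and -1.34 on the arrays labelled Srf, -1.24 and -1.10 in shEGFP, -1.01 and -0.99 in shActb_1, and -1.46 and -1.37 in shActb_2. Its intervals were -0.10 to 0.30 for Mkl1, 0.04 to 0.44 for Srf and -0.45 to -0.05 for shActb_2, where the log2 difference was -0.25 (adjusted p = 0.0517, limma). The value with shActb_2 passed as lower when only probes above background on all arrays were tested (adjusted p = 0.0371, limma). The second probe was higher with Mkl1 (log2 difference 0.65, SE 0.111, adjusted p = 0.00727, limma), where the brighter one did not pass. By the mean of both probes Fhl3 was higher with Mkl1 (log2 difference 0.37, adjusted p = 0.0133, limma) and with Srf (log2 difference 0.28, adjusted p = 0.0347, limma).

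Pdlim5 (also known as ENH) joins α-actinin through its PDZ domain and protein kinases through its LIM domains. Its brightest probe (NM_001190852) read 0.29 and 0.21 in EGFP, 1.39 and 1.39 in Mkl1, and -0.25 and -0.15 on the arrays labelled Srf. In the knockdown experiment it read 0.87 and 1.03 in shEGFP, 1.59 and 1.54 in shActb_1, and 1.74 and 1.72 in shActb_2. Again Srf lay below and Mkl1 above EGFP, with no overlap. The log2 differences at this probe were 1.14 with Mkl1 (SE 0.0715, adjusted p = 0.000171, limma), -0.45 with Srf (SE 0.0714, adjusted p = 0.00363, limma), 0.61 with shActb_1 (adjusted p = 0.00269, limma) and 0.78 with shActb_2 (adjusted p = 0.00033, limma). The decrease with Srf was seen at this probe alone. At the other 2 probes (NM_019809) the log2 difference with Srf was 0.13 (adjusted p = 0.463, limma) and -0.19 (adjusted p = 0.49, limma), and the mean of all 3 probes did not pass (log2 difference -0.17, adjusted p = 0.265, limma). The second brightest probe rose with Mkl1 (0.54), shActb_1 (0.73) and shActb_2 (0.47), each past the test, and the dimmest probe passed in none. By the mean of all 3 probes the difference with Mkl1 was 0.64, past the test and under 2-fold.

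Pdlim7 (Enigma), an α-actinin partner of the same family, was higher than its control in all 4 comparisons. Its brightest probe (NM_001114088) read 5.26 and 5.37 in EGFP, 5.98 and 5.94 in Mkl1, and 5.94 and 5.95 on the arrays labelled Srf. It read 5.20 and 5.14 in shEGFP, 6.09 and 6.08 in shActb_1, and 5.87 and 5.84 in shActb_2. Pdlim7 was the one member that rose with Srf past the test. The log2 differences were 0.63 with Srf (SE 0.0591, adjusted p = 0.000323, limma), 0.65 with Mkl1 (SE 0.0592, adjusted p = 0.000688, limma), 0.92 with shActb_1 (SE 0.0602, adjusted p = 0.000238, limma) and 0.69 with shActb_2 (SE 0.0602, adjusted p = 0.000273, limma). The other 2 Pdlim7 probes were higher in every one of these comparisons as well, past the test except for the second probe (NM_026131) with shActb_1 (0.52, adjusted p = 0.0822, limma).

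Pdlim1 (CLP36), which also binds α-actinin, was higher with Mkl1 and with 1 of the 2 hairpins. It lay between 3.75 and 3.94 in EGFP, 4.56 and 4.57 in Mkl1, 3.70 and 3.73 on the arrays labelled Srf, 3.91 and 3.94 in shEGFP, 4.29 and 4.30 in shActb_1, and 3.83 and 3.87 in shActb_2. The log2 difference was 0.72 with Mkl1 (SE 0.0689, adjusted p = 0.000835, limma) and 0.37 with shActb_1 (SE 0.0697, adjusted p = 0.0179, limma). With shActb_2 it was -0.08 (interval -0.24 to 0.09). Under quantile normalization Pdlim1 was lower with shActb_2 past the test (-0.25, adjusted p = 0.0368, limma) and its call with shActb_1 was lost (0.27, adjusted p = 0.0732, limma). The shActb_1 call was lost without any 1 of the 4 arrays compared (lowest of these adjusted p-values 0.0949, limma).

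**Figure D2:**
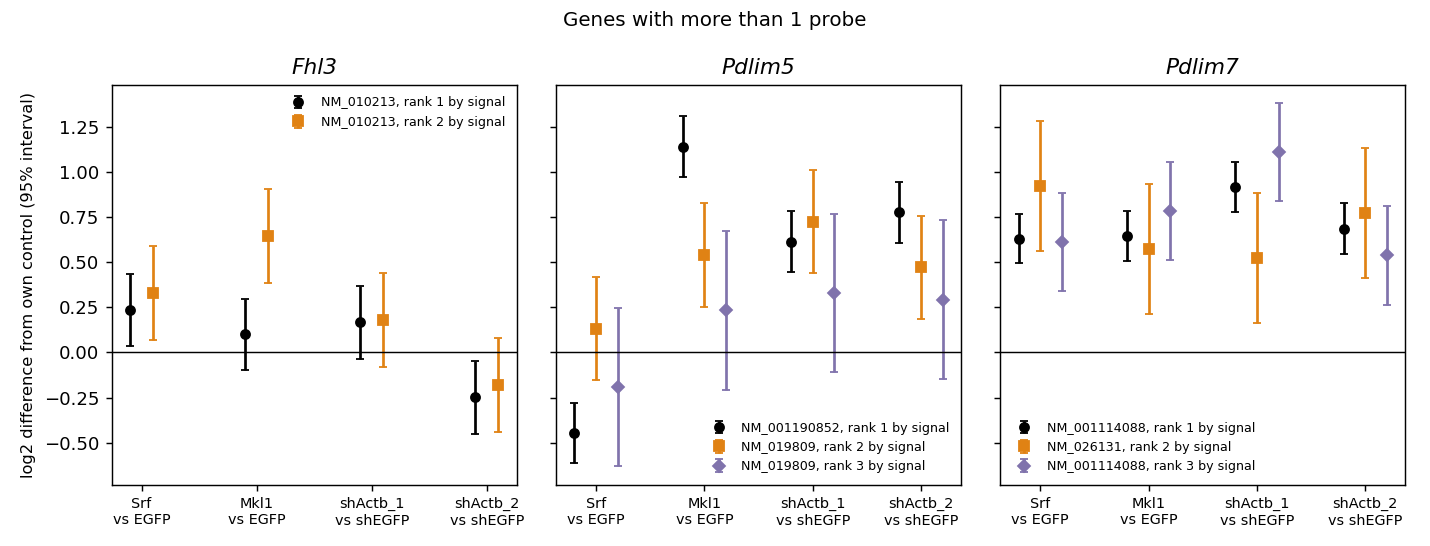
log2 difference from its own control at each probe of the genes with more than 1 probe, with 95% intervals from limma. Probes are ranked by mean signal, and the interval of the second Pdlim5 probe with Srf spans 0, while that of its brightest probe does not.

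Csrp1 and Csrp2, cysteine-rich proteins that bind zyxin and α-actinin and are typical of smooth muscle, moved apart. Csrp1 (NM_007791) read 5.83 and 5.76 in EGFP, 7.06 and 7.10 in Mkl1, and 5.78 and 5.79 on the arrays labelled Srf, where it overlapped EGFP. It read 5.87 and 5.99 in shEGFP, 6.94 and 6.96 in shActb_1, and 6.90 and 6.85 in shActb_2. The Mkl1 arrays and both hairpins were thus clear of their controls. Csrp1 was 2.44-fold higher with Mkl1 (log2 difference 1.29, SE 0.0606, adjusted p = 4.98e-05, limma), 2.03-fold with shActb_1 (log2 difference 1.02, SE 0.0616, adjusted p = 0.000168, limma) and 1.93-fold with shActb_2 (log2 difference 0.95, SE 0.0616, adjusted p = 9.53e-05, limma). The first hairpin's value fell to 0.96 without shEGFP replicate 1, when 1 member was past the test with over 2-fold in place of 2.

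Csrp2 (NM_007792) was the only member that lay below its control in all 4 comparisons. It read 4.93 and 4.85 in EGFP, 4.35 and 4.16 in Mkl1, and 3.89 and 3.25 on the arrays labelled Srf, and 4.67 and 4.65 in shEGFP, 3.92 and 3.78 in shActb_1, and 4.17 and 4.19 in shActb_2. Neither experiment showed overlap with the control, but the 2 arrays labelled Srf lay far apart. The log2 difference was -1.32 with Srf (SE 0.184, adjusted p = 0.00199, limma), -0.64 with Mkl1 (SE 0.184, adjusted p = 0.0471, limma), -0.81 with shActb_1 (SE 0.184, adjusted p = 0.035, limma) and -0.48 with shActb_2, which did not pass (adjusted p = 0.0724, limma). That last value passed as lower with normexp background correction (adjusted p = 0.0249), quantile normalization (-0.66, adjusted p = 0.0295), the compared arrays alone (adjusted p = 0.0175), a variance trend with robust estimation (adjusted p = 0.0296) and the replicate number as a block (adjusted p = 0.0481), all by limma. Without Srf replicate 2 the value with Srf was -0.996, no longer over 2-fold. The Mkl1 and shActb_1 calls were lost without any 1 of the arrays compared (adjusted p 0.0816 to 0.231 and 0.12 to 0.179, limma).

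Tes (testin) and Zyx (zyxin) are a pair that bind each other at focal adhesions and on stress fibres, where zyxin also binds the Ena/VASP proteins. Both genes rose with Mkl1 and with each hairpin. Tes (NM_207176) read 4.56 and 4.50 in EGFP, 5.02 and 5.03 in Mkl1, and 3.90 and 3.95 on the arrays labelled Srf. It read 4.03 and 4.06 in shEGFP, 4.43 and 4.41 in shActb_1, and 4.55 and 4.52 in shActb_2. As for Fhl2, the Srf arrays lay below and the Mkl1 arrays above EGFP. The log2 differences of Tes were -0.60 with Srf (SE 0.053, adjusted p = 0.000246, limma), 0.50 with Mkl1 (SE 0.053, adjusted p = 0.00121, limma), 0.37 with shActb_1 (SE 0.0543, adjusted p = 0.00648, limma) and 0.49 with shActb_2 (SE 0.0542, adjusted p = 0.000612, limma). Without shEGFP replicate 1 or without shActb_1 replicate 1 the shActb_1 call of Tes was lost (adjusted p = 0.057 and 0.0568, limma).

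Zyx (NM_011777) lay between 5.92 and 5.96 in EGFP, 6.45 and 6.51 in Mkl1, 5.82 and 5.87 on the arrays labelled Srf, 5.86 and 5.91 in shEGFP, 6.42 and 6.42 in shActb_1, and 6.50 and 6.56 in shActb_2. It was higher by 0.54 with Mkl1 (SE 0.0552, adjusted p = 0.00105, limma), 0.53 with shActb_1 (SE 0.0564, adjusted p = 0.00167, limma) and 0.64 with shActb_2 (SE 0.0563, adjusted p = 0.000273, limma). With Srf the difference was -0.10 (interval -0.23 to 0.03) and did not pass.

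**Figure D3:**
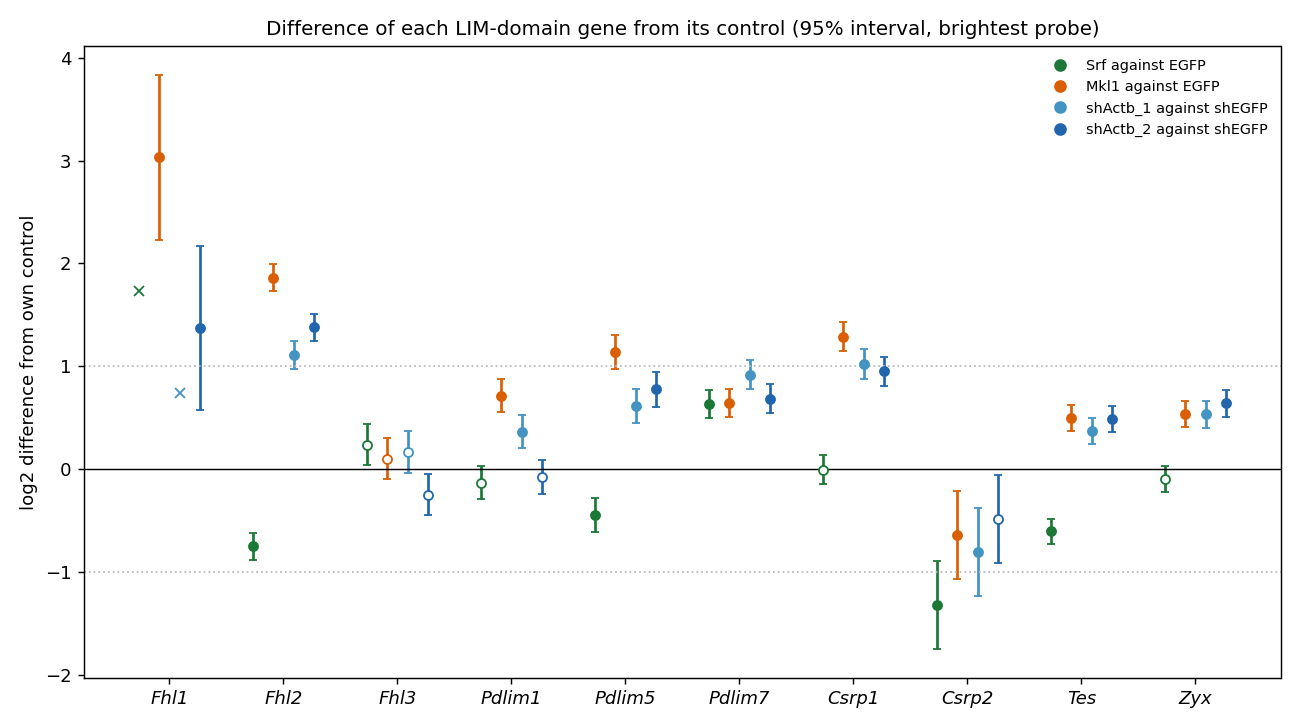
log2 difference of each gene from its own control at its brightest probe, with 95% intervals from limma. Filled points passed the test, open points did not, crosses were not tested, and dotted lines mark 2-fold. With Mkl1 8 of 10 genes passed above 0, all but Csrp2 and Fhl3, and the Srf values of Fhl2, Pdlim5 and Tes lie below 0.

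Fhl2, Pdlim5 and Tes were the members past the test in opposite directions with the 2 overexpressions, lower on the arrays labelled Srf and higher in Mkl1. They were 3 of the 9 members tested in both, where 1.71% of all genes tested in both (262 of 15364) did the same. By the mean of all probes of a gene 2 remained, since the decrease of Pdlim5 with Srf was seen at 1 of its 3 probes. Without EGFP replicate 1, Pdlim1 joined them. With a fit on the compared arrays alone Fhl2 kept both calls, and Pdlim5 (adjusted p = 0.0862 with Srf and 0.0568 with Mkl1, limma) and Tes (0.0513 and 0.106) lost both. This count rests on EGFP arrays used in both comparisons, so Srf was also set against Mkl1 directly, on arrays of the same slide row. For these 3 genes the sign of the direct difference follows from how they were chosen and is a description. The Srf brightest probe itself was 2.58 lower there (log2 difference -2.58, adjusted p = 1.6e-05, limma), and Acta2 was lower by 3.55 (log2 difference -3.55, adjusted p = 8.15e-07, limma).

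Between the arrays labelled Srf and Mkl1, 8 of 10 members differed past the test, all lower with Srf, where 34.4% of all genes passed in either direction, 20.0% lower and 14.4% higher. Fhl2 was lower by a factor of 6.1 (log2 difference -2.61, SE 0.0562, adjusted p = 7.94e-07, limma), Pdlim5 at its brightest probe by 3.01 (log2 difference -1.59, adjusted p = 1.17e-05, limma) and Tes by 2.14 (log2 difference -1.10, adjusted p = 1.56e-05, limma). Csrp1 (-1.29) was also past the test with over 2-fold, 4 of 9 members without Fhl1 where 7.23% of all genes did so. The other 2 Pdlim5 probes stood at -0.41 and -0.43, the second not past the test (adjusted p = 0.148, limma), and by the mean of its probes Pdlim5 was at -0.81 and under 2-fold, as was Tes by quantile normalization. Fhl1 was above background on 1 of the 2 arrays labelled Srf and entered through Mkl1, so it is counted among the 8 of 10 only by its measured means, and without it 7 of 9 members passed. Pdlim1 (-0.85), Csrp2 (-0.68) and Zyx (-0.63) passed with less than 2-fold. Pdlim7 did not pass (-0.01, interval -0.15 to 0.12), nor did Fhl3 (0.14, interval -0.06 to 0.34). The calls of Fhl1 and Csrp2 were lost without either Mkl1 array, that of Fhl1 also without Srf replicate 1 (adjusted p = 0.159, limma) and that of Csrp2 without Srf replicate 2 (adjusted p = 0.0741, limma). The median of the members was -0.97 (-0.85 without Fhl1), beside -0.048 over all genes.

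**Figure D4:**
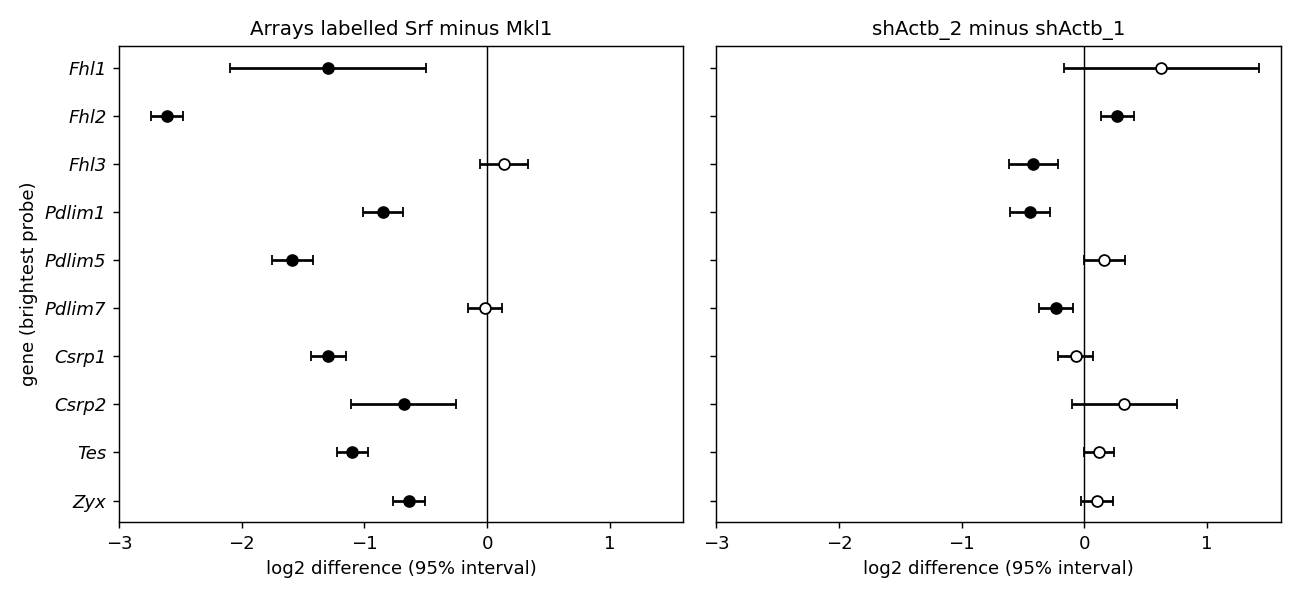
log2 difference of each gene between the arrays labelled Srf and Mkl1 (left) and between the 2 Actb hairpins (right) at its brightest probe, with 95% intervals from limma. Filled points passed the test. The Srf arrays were lower for 8 genes, and the differences between hairpins were all under 2-fold.

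Between the hairpins, 4 of 10 members differed past the test, where 33.4% of all genes did (21.0% higher and 12.4% lower), and none by over 2-fold (4.30% of all genes). Fhl2 was higher with shActb_2 by 0.27 (SE 0.0568, adjusted p = 0.0105, limma). Pdlim1 was lower by 0.44 (log2 difference -0.44, adjusted p = 0.00351, limma), Fhl3 by 0.42 (log2 difference -0.42, adjusted p = 0.0098, limma) and Pdlim7 by 0.23 (log2 difference -0.23, adjusted p = 0.0231, limma). The calls of Fhl2, Fhl3 and Pdlim7 were lost without shActb_1 replicate 1 or without shActb_2 replicate 1, leaving Pdlim1 as the 1 member past the test.

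The order of the group means differed between members. On the arrays labelled Srf the lowest of all 6 means was found for Fhl2, Pdlim1, Pdlim5, Csrp1, Csrp2, Tes and Zyx, and the highest mean was that of Mkl1 for Fhl1, Fhl2, Pdlim1, Csrp1 and Tes. For Pdlim5 and Zyx it was that of shActb_2, and for Pdlim7 and Fhl3 that of shActb_1. For Csrp2 the controls were highest, EGFP at 4.89 and shEGFP at 4.66. Neighbours whose arrays overlapped included EGFP and shEGFP for Fhl1, Srf and EGFP for Csrp1, Srf and Mkl1 for Pdlim7, and EGFP and shActb_2 for both Pdlim1 and Tes. Srf also overlapped shActb_1 for Csrp2 and shEGFP for Zyx, and Mkl1 overlapped shActb_2 for Zyx, so these lowest and highest means are not clear of their neighbours, nor is the lowest of Csrp1. For Fhl2 and Pdlim5 no neighbours overlapped. Control levels differed between the experiments, as for Pdlim5 (0.25 in EGFP and 0.95 in shEGFP) and Tes (4.53 and 4.05), where vector, slide and experiment cannot be told apart.

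The measured group means of Fhl1 had the widest spread of the members, but they were above background on both arrays in only 2 groups, so no genes of like pattern are given for it. For Fhl2, chosen after its values were seen (range of group means 2.61), the genes with the most similar pattern over the 6 group means, among 18298 named probes above background on all arrays, were Gnpnat1 (Pearson r = 0.997), Slc25a5 (r = 0.994) and Tmem234 (r = 0.994). With 6 points that share arrays, slides and scaling, these values are descriptions.

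The other LIM-domain genes of the cytoskeleton moved in both directions. Of 40 listed, 37 were tested with Mkl1, and 10 were higher and 3 lower past the test, beside the 17.7% and 11.3% of all genes given above. Tgfb1i1 (Hic-5, a focal adhesion adaptor, 2.32), Pdlim3 (ALP, 1.93), Fblim1 (migfilin, 1.69) and Lmo7 (1.17) rose by over 2-fold with Mkl1 and Limch1 fell by 1.73. With shActb_1, 5 of 38 were higher and 3 lower (7.79% and 6.17% of all genes), and with shActb_2, 10 of 38 were higher and 9 lower (28.2% and 16.3%). Tgfb1i1 (1.71 and 1.30) and Fblim1 (1.50 and 1.07) rose by over 2-fold with each hairpin, Lmo7 did so with shActb_2 (1.47), and Csrp3, the muscle relative of Csrp1 and Csrp2, fell with each (log2 differences -2.61 and -1.99). With shActb_1, Limch1 (-1.66) and Pdlim3 (-1.05) also fell by over 2-fold. The medians of the list were 0.067 with Mkl1, 0.049 with shActb_1 and -0.018 with shActb_2.

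On the arrays labelled Srf, 4 of 37 other cytoskeletal LIM genes were higher and 6 lower past the test, where 17.4% and 16.5% of all genes were. Lims2 (PINCH-2, 3.36), Pdlim3 (1.23) and Ablim1 (1.08) were higher and Pdlim4 (RIL, -1.18) lower with over 2-fold. Set directly against Mkl1, 11 of 37 were lower and 4 higher with Srf (20.0% and 14.4% of all genes). Fblim1 (-2.12) and Tgfb1i1 (-1.87) were lower with over 2-fold, and Limch1 (1.86) and Lims2 (1.76) higher. Between the hairpins 8 of 36 were higher and 8 lower with shActb_2 (21.0% and 12.4% of all genes), and Limch1 (1.03) passed 2-fold.

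Partners of zyxin and Tes on stress fibres were mostly higher in Mkl1 and shActb_2. Of 10 partners, 6 were higher and 2 lower with Mkl1 (17.7% and 11.3% of all genes), with Actn1 (α-actinin, 1.30) over 2-fold. With shActb_1, 3 were higher (7.79% of all genes), and with shActb_2, 9 (28.2% of all genes), none lower and none over 2-fold. On the arrays labelled Srf 3 were higher and 2 lower (17.4% and 16.5% of all genes), with Synpo2 (myopodin, -1.42) over 2-fold. Against Mkl1, 6 of 10 were lower with Srf, among them Vcl (vinculin, -1.37) and Actn1 (-1.17), and 2 were higher (20.0% and 14.4% of all genes). Between the hairpins 4 of 10 were higher with shActb_2 (21.0% of all genes), Synpo2 (1.20) over 2-fold. Medians of the partners were 0.15 with Srf, 0.44 with Mkl1, 0.16 with shActb_1 and 0.56 with shActb_2.

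The nuclear LIM genes were transcription factors and LIM-only cofactors that carry the same fold, listed with their binding partners Ldb1 and Ldb2, which lack it. Genes of this list were called in both directions, and the shares of all genes are those given with the other LIM genes. With Mkl1, 1 of 10 tested was higher and 4 lower, with Isl1 (-1.25) over 2-fold. With shActb_1, 1 of 12 was higher and 2 lower (Isl1 -1.02), and with shActb_2, 1 of 13 was higher and 4 lower (Lhx9 -1.14). On the arrays labelled Srf 4 of 13 were higher and 2 lower, with Lmo2 (1.50), Lhx3 (1.34) and Lhx2 (1.06) higher and Lmo1 (-1.10) lower by over 2-fold. Against Mkl1, 6 of 13 were higher and 1 lower with Srf, with Lhx2 (1.64) and Lhx3 (1.46) higher and Lmo1 (-2.10) lower by over 2-fold. Between the hairpins 2 of 13 were higher and 1 lower, none over 2-fold.

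**Figure D5:**
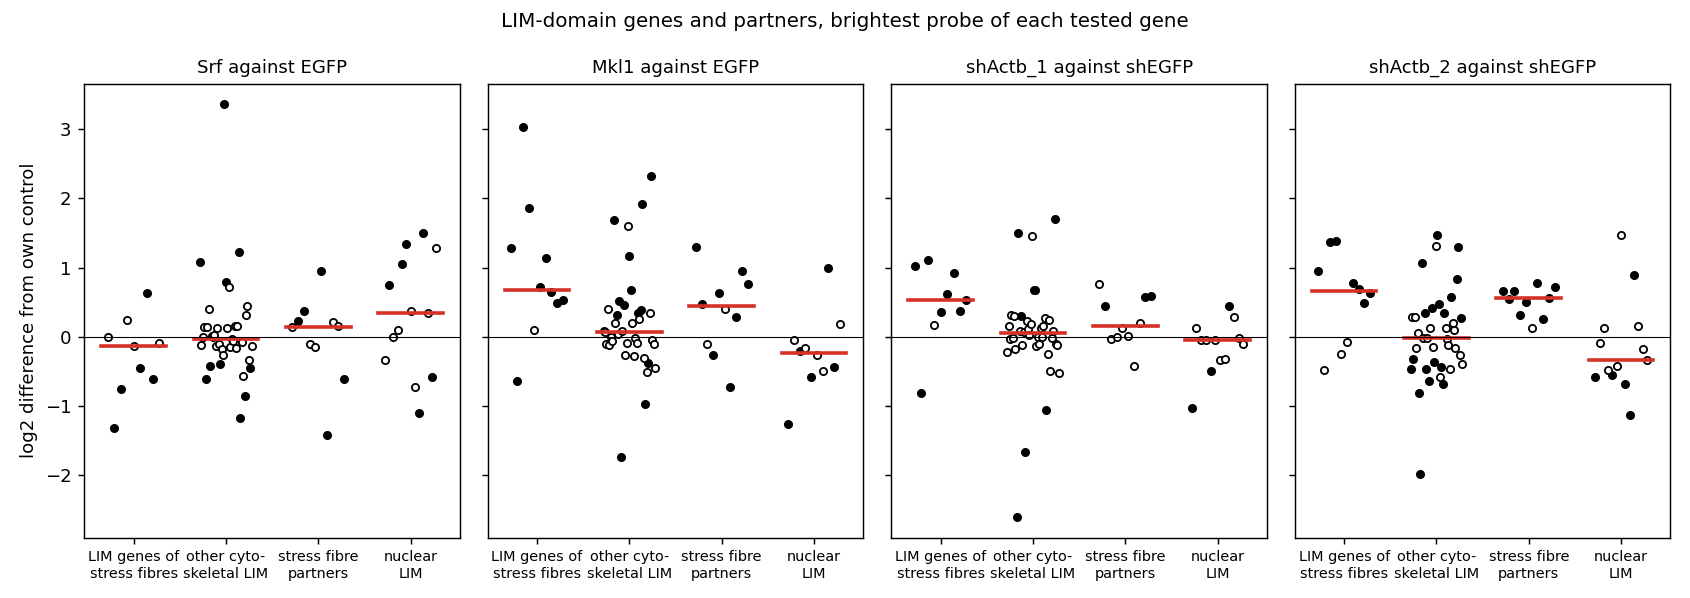
log2 difference from the control at the brightest probe of every tested gene in the 10 stress fibre LIM genes, the other cytoskeletal LIM genes, the stress fibre partners and the nuclear LIM genes, in 1 panel per comparison. Filled points passed the test, open points did not, and red lines are medians. With Mkl1 the median of the stress fibre LIM genes is 0.68 and that of the other cytoskeletal LIM genes is 0.067.

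Known Srf targets stand beside these values. Acta2 (smooth muscle α-actin) rose by 3.37 with Srf, 6.93 with Mkl1, 4.42 with shActb_1 and 5.04 with shActb_2. Tagln (transgelin) rose by 2.34, 2.32, 2.20 and 2.53 in the same order. Cnn1 (calponin) rose by 1.14, 6.56, 4.23 and 4.76. Myl9 (myosin light chain) rose by 3.60 with Mkl1, 3.12 with shActb_1 and 4.33 with shActb_2 and stood at 0.26 with Srf, which did not pass.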

How the data were processed

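The authors scanned 12 arrays (62976 features) and quantified them with Feature Extraction 11.5.1.1. Per the file headers, the deposited signal intensity of a spot is background-subtracted and not scaled between arrays. The deposited log2 table (55819 rows, 55681 of them probes) differs from log2 of that intensity by a constant per array, within 0.01 for 99.97% to 99.99% of probes. It was used as an alternative. The labels name another array format than the features and the study's methods.

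Here log2 was taken of the processed intensity, control and outlier spots were left out, repeat spots were averaged, and each array's 75th percentile (843 to 1150) was subtracted. The accessions of the probes, stripped of versions, were looked up among RefSeq transcripts (GRCm38.p6), which named 28026 of 55681 probes (50.3%) for 21154 genes. A gene stands for its probe with the highest mean signal.

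All 12 arrays were fitted with limma 3.58.1 (lmFit and eBayes, R 4.3.3, Python 3.11.15), 1 mean per group, 6 two-sided comparisons, with Benjamini-Hochberg adjustment over all probes tested, which had to be well above background on both arrays of 1 or both groups compared. Calls needed an adjusted p under 0.05, and 2-fold where stated. The fit was tested on simulated data. Intervals are 95%.

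All members were named. Of other lists, the 5 largest changes past both thresholds were named in each comparison. The members and lists were chosen with earlier results of these data known. Alternatives were normexp (offset 50, on the median spot signal, as the mean was not among the columns), quantile normalization, the deposited table, other filters on dim probes, compared arrays only, arrays of the same slide only, the replicate number as a block, a variance trend with robust estimation, the mean of all probes and each array left out. Slide as a block leaves comparisons within a slide unchanged and could not be fitted for shActb_2.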

Additional observations from a re-analysis of the deposited data

Results flagged for a closer look

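A direct test found that members differed between the treatments of an experiment. Between the hairpins, shActb_2 against shActb_1, the log2 difference was 0.27 for Fhl2, -0.42 for Fhl3, -0.44 for Pdlim1 and -0.23 for Pdlim7. These are 4 of 10 members where 33.4% of all genes differed, and the calls of Fhl2, Fhl3 and Pdlim7 were lost without shActb_1 replicate 1 or without shActb_2 replicate 1. Between the arrays labelled Srf and Mkl1, for the genes with opposite signs against EGFP, it was -2.61 for Fhl2, -1.59 for Pdlim5 and -1.10 for Tes, whose signs follow from how these genes were chosen on the same arrays and are a description. The hairpins lay on different slides, so that slide and hairpin cannot be told apart.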

How the results depend on the processing

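With the compared arrays alone, which leave few degrees of freedom, the members past the test came to 1 with Srf, 1 with Mkl1 and 5 with shActb_1 (5 too with arrays of the same slide), those past 2-fold to 0 with Srf and 1 with Mkl1, and those moving in opposite directions with Srf and Mkl1 to 1, Fhl2. Without a filter on dim probes 2 members passed with over 2-fold with Srf. Quantile normalization left 1 with over 2-fold with shActb_1, and normexp or only probes above background on all arrays left 1 of 2 with shActb_2, without Fhl1. With each array left out in turn, members past the test ranged from 5 to 6 with Srf, 8 to 8 with Mkl1, 5 to 6 with shActb_1, 6 to 7 with shActb_2, 6 to 7 for Srf against Mkl1 and 1 to 3 between the hairpins, those with over 2-fold from 0 to 2, 4 to 4, 1 to 2, 1 to 3, 4 to 5 and 0 to 0, and those in opposite directions from 3 to 4. The cause of these changes was not tested.

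None of the values that changed sign had passed the test. They were Csrp1 with Srf (0.047 by quantile normalization, 0.026 without EGFP replicate 1 and -0.040 without replicate 2), Fhl3 with Mkl1 (-0.037 by normexp), Fhl3 for Srf against Mkl1 (-0.090 by the mean of all probes), Pdlim7 for Srf against Mkl1 (0.12 by quantile normalization, 0.055 by the mean of all probes, 0.0054 without Mkl1 replicate 1 and -0.033 without replicate 2), Pdlim5 between the hairpins (-0.042 by the mean of all probes) and Zyx between the hairpins (-0.017 by quantile normalization).

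No label says that a replicate number marks a shared batch, and 2 arrays a group cannot settle it, so the numbers were not taken as pairs. Deviations of same-numbered arrays correlated at 0.16 for EGFP and Mkl1, 0.26 for EGFP and Srf, 0.042 for shEGFP and shActb_1, 0.23 for shEGFP and shActb_2, 0.061 for Mkl1 and Srf, and -0.0022 for the hairpins. With the replicate number as a block the members past the test numbered 5, 9, 8, 8, 8 and 4, the gain being Csrp2 with shActb_2 (log2 difference -0.48, adjusted p = 0.0481, limma), and no other call of a member changed. The count in opposite directions, examined under these alternatives after seeing the data, was 3 under the block. Dim signal limits Fhl1 most.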
